A study of Homo sapiens with 6 samples.

Results

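The kallikrein-related peptidases KLK5 to KLK14 were followed in RNA sequencing of an esophageal cancer cell line and of a clone of it in which the gene of the transcription factor NRF2 had been cut. The 10 genes were chosen by symbol from a table of 58884 genes, with differences already seen between these libraries in view. Where a symbol repeats, the row with the highest mean of the 6 columns is taken, but 0 of the 10 symbols repeat, so no measured value decided which rows were used. KYSE70, the parental line, is an established human line of esophageal squamous cell carcinoma (ESCC) with a mutant NFE2L2, the gene of NRF2. NRF2null-KYSE70 is a monoclonal line made from it by CRISPR-Cas9 editing of NFE2L2, so that its values belong to 1 clone and differences between clones cannot be told apart from loss of NRF2. That loss was not complete, since the authors still detected a faint, smaller NRF2 protein band in the clone. Both lines were grown without treatment in RPMI1640 medium, and 3 libraries were made from each. Nothing in the labels says that these came from separate cultures, so p-values measure the spread between libraries, which may be technical.

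Kallikrein-related peptidases are secreted serine proteases that are made as inactive precursors and switched on when another protease removes a short propeptide. In stratified squamous epithelium they form a cascade: KLK5 can activate itself and KLK7, and the active enzymes cut the desmosomal proteins that hold the outermost cells together. The inhibitor SPINK5 restrains them, and some of them also cleave protease-activated receptors on the cell surface. All are encoded side by side on the long arm of chromosome 19, together with KLK1, KLK2, KLK3, KLK4 and KLK15.

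In the build of the files (hg38) the 10 genes lie on the minus strand of chromosome 19 within 140.943 kb, from KLK5 at chr19:50943303-50953093 to KLK14 at chr19:51077495-51084245. KLK6 lies at chr19:50958631-50969673, KLK7 at chr19:50976468-50984099, KLK8 at chr19:50996007-51002711 and KLK9 at chr19:51002508-51009634. Farther along are KLK10 at chr19:51012739-51020175, KLK11 at chr19:51022216-51028039, KLK12 at chr19:51029092-51035230 and KLK13 at chr19:51055626-51065114. Promoter windows of 300 bases around annotated starts (RefSeq, GRCh38.p14) were found for 9 of the 10 genes, 16 windows in all, and KLK8 was not matched. Stretches of 4 genes are shown, since they stand before the starts of the members whose RNA differed most between the lines (KLK5 and KLK6), of the next gene in the row (KLK7) and of the most abundant member of the parental line (KLK10). Each is written 5′ to 3′ on the minus strand, without the bases that the annotation places in an exon of that gene. Capitals mark a match to GGAATG, the motif bound by TEAD factors, read on the other strand.

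KLK5, chr19:50953094-50953288: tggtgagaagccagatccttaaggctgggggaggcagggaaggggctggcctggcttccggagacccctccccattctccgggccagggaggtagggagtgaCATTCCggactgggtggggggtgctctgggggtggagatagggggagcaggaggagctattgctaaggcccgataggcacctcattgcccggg
KLK6, chr19:50969674-50969841: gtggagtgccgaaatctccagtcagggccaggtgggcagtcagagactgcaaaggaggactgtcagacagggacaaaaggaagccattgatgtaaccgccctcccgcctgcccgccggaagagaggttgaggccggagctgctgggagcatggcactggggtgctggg
KLK7, chr19:50984100-50984314: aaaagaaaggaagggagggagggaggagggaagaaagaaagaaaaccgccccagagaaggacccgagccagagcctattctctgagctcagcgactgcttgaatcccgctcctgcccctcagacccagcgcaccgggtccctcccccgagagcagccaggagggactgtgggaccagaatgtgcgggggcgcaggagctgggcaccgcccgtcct
KLK10, chr19:51019710-51019819: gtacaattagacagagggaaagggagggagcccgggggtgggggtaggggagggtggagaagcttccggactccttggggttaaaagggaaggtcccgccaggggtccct

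The match in KLK5 begins 148 bases before the start, and a second match begins 57 bases before it and reaches into a stretch that the annotation counts as exon. All 3 windows of KLK14 also held the TEAD motif, so that 4 of the members' 16 windows held it, against 14.03% of 35116 windows of the whole table. The KLK14 windows chr19:51082807-51083106 and chr19:51082838-51083137 overlap and hold the same site, so windows outnumber separate sites here. TGACNNNGC, the core of the antioxidant response element that NRF2 binds, was found in 5 windows (3 overlapping ones of KLK7, 1 of KLK12 and 1 of KLK13), against 13.35% of all. The window of KLK7 at chr19:50983766-50984065 holds 2 matches, 1 of which begins 26 bases after its start. The other match is shared by the 3 windows of KLK7. This shared match lies in bases that the annotation counts as exon of KLK7, outside the stretch shown. Neither TGANTCA, the AP-1 motif found in 7.709% of all windows, nor TATAAA, found in 11.53%, was in any window of the 9 genes. Both strands were searched, and the letters of the 4 motifs were matched separately. These letters describe the windows only, since no binding was measured.

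The libraries held 52072801 to 63975313 reads in genes. NFE2L2 had 9839 to 10039.8 normalized counts in the parental libraries and 5803 to 6434 in those of the clone, so the targeted gene followed the labels with RNA left. The 7 markers of squamous carcinoma cells, among them KRT5, TP63 and SOX2, were all tested and averaged 598 normalized counts or more in either line. KRT5 averaged 209917 and 124640 normalized counts in KYSE70 and NRF2null-KYSE70, TP63 26341 and 13892, and SOX2 18091 and 20068. Of 11 markers of other cell types, 7 had 3 reads or fewer in every library, including the T cell marker CD3E and the macrophage marker CD68. COL1A2, DCN, CDX2 and PGC were at 0 throughout. The other 4 were MUC2, with 0 reads in each parental library and 0, 4 and 1 in those of the clone, PTPRC, which averaged 0.351 normalized counts in the parental line and 43.6 in the clone, VWF (142 and 353) and COL1A1 (1232 and 554), and the summed level of all 11 was 1316 to 1483 in KYSE70 and 782 to 1086 in NRF2null-KYSE70. Their part in the results was not tested. In bulk RNA, more cells expressing a gene and more RNA per cell cannot be told apart.

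KLK5 and KLK6 were far higher in NRF2null-KYSE70, KLK10 was 2.24-fold higher, and KLK7 and KLK8 moved little and in opposite directions. KLK11 was higher from a handful of reads, KLK13 and KLK14 had few reads in both lines, and KLK9 and KLK12 were practically without reads. Values are normalized counts, that is, reads per gene divided by the size factor of the library, in which 1 read is worth 0.889 to 1.14. A gene was tested where its mean over the 6 libraries was at least 10, and it passed at a limma adjusted p under 0.05 with a log2 fold change of 1 or more in size, NRF2null-KYSE70 over KYSE70.

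Of the 10 members, 6 were tested. Among them 4 were higher past both thresholds (KLK5, KLK6, KLK10 and KLK11) and 0 were lower, where 7.23% of all 15994 tested genes were higher and 7.43% were lower. By adjusted p alone 5 were higher and 1 was lower, against 29.3% and 28.3% of all genes. For each of the 6, all libraries of one line lay above all of the other, which was also the case for 63.4% of all genes. The median log2 fold change was 1.66 for the 6 and -0.0070 for all tested genes. KLK11 passed the filter on low values only through NRF2null-KYSE70, so it could only be tested because it was higher there. These counts describe a family picked with its differences known and are not independent evidence of its direction.

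KLK5, which starts the cascade, had 48.9, 54.4 and 67.5 normalized counts in the KYSE70 libraries and 2154, 2189 and 2105 in the NRF2null-KYSE70 libraries. Every library of the clone lay far above every parental one, and the clone's libraries were within a few percent of each other. The means were 56.9 ± 9.54 and 2149 ± 42.0 (SD, 3 libraries per line), a 37.7-fold difference. The log2 fold change was 5.23 ± 0.130 (SE, adjusted p = 8.56e-12 by limma), and KLK5 ranked 33 from the top of 15994 tested genes.

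KLK6, a protease of trypsin-like specificity also known from the nervous system, had 105, 89.8 and 81.2 normalized counts in KYSE70. In NRF2null-KYSE70 it had 1628, 1500 and 1332. The lines did not overlap, although the clone's libraries spread more for KLK6 than for KLK5. KLK6 rose from 92.0 ± 12.02 to 1487 ± 148 (SD, 3 libraries per line), or 16.2-fold. This was a log2 fold change of 4.00 ± 0.129 (SE, adjusted p = 7.94e-11 by limma). It ranked 108 among the tested genes.

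KLK10 is a member of which little is known as to what it cleaves. It had 1904, 1735 and 1740 normalized counts in KYSE70 and 4046, 4218 and 3797 in NRF2null-KYSE70. The lowest clone library was thus well above the highest parental one. KLK10 rose 2.24-fold, from 1793 ± 96.1 to 4020.2 ± 211 (SD, 3 libraries per line), at a log2 fold change of 1.16 ± 0.0620 (SE, adjusted p = 7.77e-09 by limma).

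KLK7, the chymotrypsin-like enzyme that KLK5 activates, had 173, 129 and 159 normalized counts in KYSE70 and 187, 212 and 217 in NRF2null-KYSE70. The highest parental library lay just under the lowest of the clone. Its log2 fold change of 0.42 ± 0.164 (SE, adjusted p = 0.0416 by limma) stayed under the fold threshold, and the means were 154 ± 22.4 and 205 ± 16.2 (SD, 3 libraries per line). The adjusted p was above 0.05 in 6 of 17 alternative settings, among them without KYSE70 library 2 (0.153).

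KLK8, or neuropsin, was the one tested member that was lower in the clone. It had 366, 433 and 383 normalized counts in KYSE70 and 306, 298 and 285 in NRF2null-KYSE70, with no overlap. The clone retained 75.3% of the parental level, 297 ± 10.5 against 394 ± 34.9 (SD, 3 libraries per line). The log2 fold change was -0.40 ± 0.115 (SE, adjusted p = 0.00931 by limma), which did not reach the fold threshold.

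KLK11 was found with 10, 2 and 4 reads in the parental libraries and 12, 32 and 25 in those of the clone. Its normalized counts were 4.98 ± 3.60 and 24.0 ± 10.4 (SD, 3 libraries per line), and the lowest clone library was close to the highest parental one. The log2 fold change was 2.15 ± 0.631 (SE, adjusted p = 0.0109 by limma), and without NRF2null-KYSE70 library 2 the adjusted p was 0.0557. KLK13 fell under the filter, with 2, 5 and 1 reads against 7, 24 and 11. Its libraries did not overlap, and in a fit without the filter, over 28451 genes, its log2 fold change was 2.14 ± 0.713 (SE, adjusted p = 0.0305 by limma).

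KLK14, a trypsin-like activator of other kallikreins, was also not tested. Its reads numbered 13, 9 and 5 in KYSE70 and 18, 5 and 3 in the clone, and the lines overlapped. KLK9 had 0 reads in 5 libraries and 1 read in NRF2null-KYSE70 library 3. KLK12 had 0 reads apart from 2 in NRF2null-KYSE70 library 2. A count of 0 allows an expected count of up to about 3 reads in a library, so no fold is given for KLK9 and KLK12. For KLK9 this bounds the expected count and not its RNA. Of its exon bases 96.3% are shared with other genes on the same strand, and how such reads were counted is not stated.

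**Figure D1:**
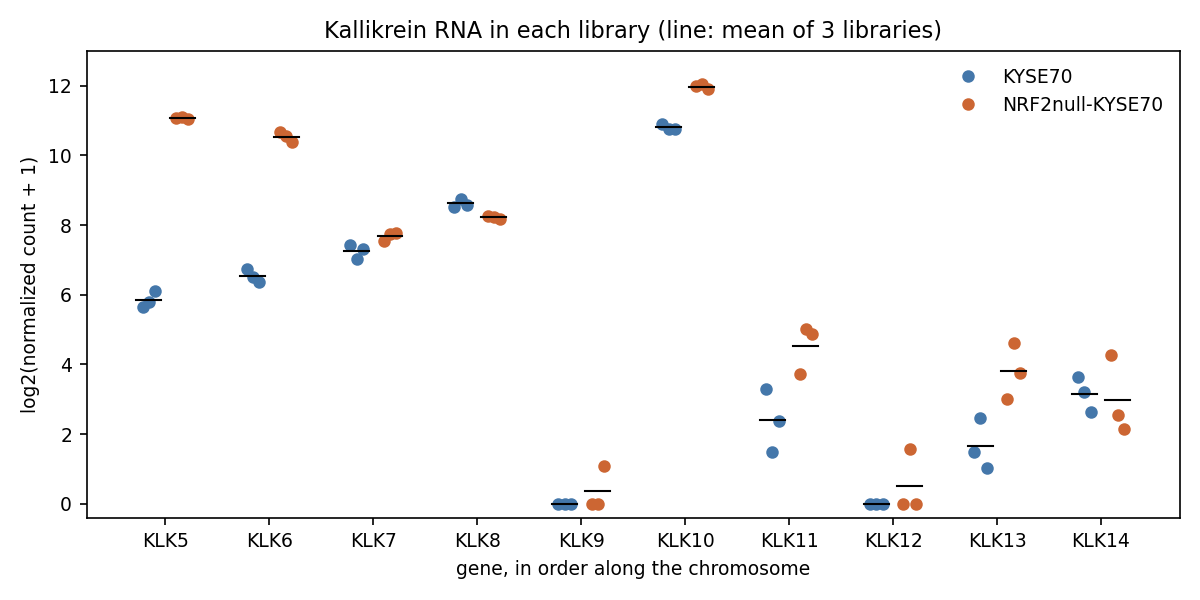
Normalized counts of the 10 kallikreins, as log2(normalized count + 1) on the vertical axis, with 1 point per library and a line at the mean of 3 libraries, KYSE70 in blue and NRF2null-KYSE70 in orange. KLK5 and KLK6 are separated by 5.23 and 4.00 log2 units, whereas KLK7 and KLK8 differ by 0.42 and -0.40 and KLK14 overlaps.

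Because counts grow with the length of a gene, the levels of members were set against each other as normalized counts per kilobase of merged exon. KYSE70 was mainly a KLK10 and KLK8 line. KLK10 made up 56.4% ± 1.49 and KLK8 25.3% ± 2.65 of the summed level of the 10 genes (SD, n = 3). In NRF2null-KYSE70 the sum was divided mostly between KLK5 (38.6% ± 1.04), KLK10 (31.4% ± 0.628) and KLK6 (22.3% ± 1.44), and KLK8 held 4.71% ± 0.0868 (SD, n = 3). The summed level went from 836 ± 24.5 to 3375 ± 146 normalized counts per kilobase (SD, 3 libraries per line), 4.04-fold. With the longest coding transcript as the length it was 3.74-fold.

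In KYSE70 the order of levels per kilobase was KLK10 (472 ± 25.3), KLK8 (211 ± 18.7), KLK7 (62.7 ± 9.16), KLK6 (46.5 ± 6.08) and KLK5 (34.4 ± 5.77; SD, n = 3). The libraries of KLK7 and KLK6 overlapped in this order, and those of KLK6 (41.1 to 53.1) and KLK5 (29.6 to 40.8) almost touched. Within each KYSE70 library, however, KLK7 was above KLK6 and KLK6 above KLK5. KLK14 (7.002), KLK11 (1.60) and KLK13 (0.949) followed, of which KLK11 and KLK13 overlapped. With the longest coding transcript as the length, KLK11 came to 3.69 in KYSE70 and 17.8 in NRF2null-KYSE70. Its parental libraries (1.35 to 6.60) overlapped those of KLK14 (4.65 to 10.2), although KLK14 was higher within each parental library. In NRF2null-KYSE70 KLK5 came first at 1300.3 ± 25.4, before KLK10 (1058 ± 55.7), KLK6 (752 ± 75.1), KLK8 (159 ± 5.65) and KLK7 (83.8 ± 6.62; SD, n = 3). None of these 5 overlapped its neighbour in the order. The levels of KLK11 (7.72), KLK14 (7.45) and KLK13 (5.57) in the clone all overlapped.

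**Figure D2:**
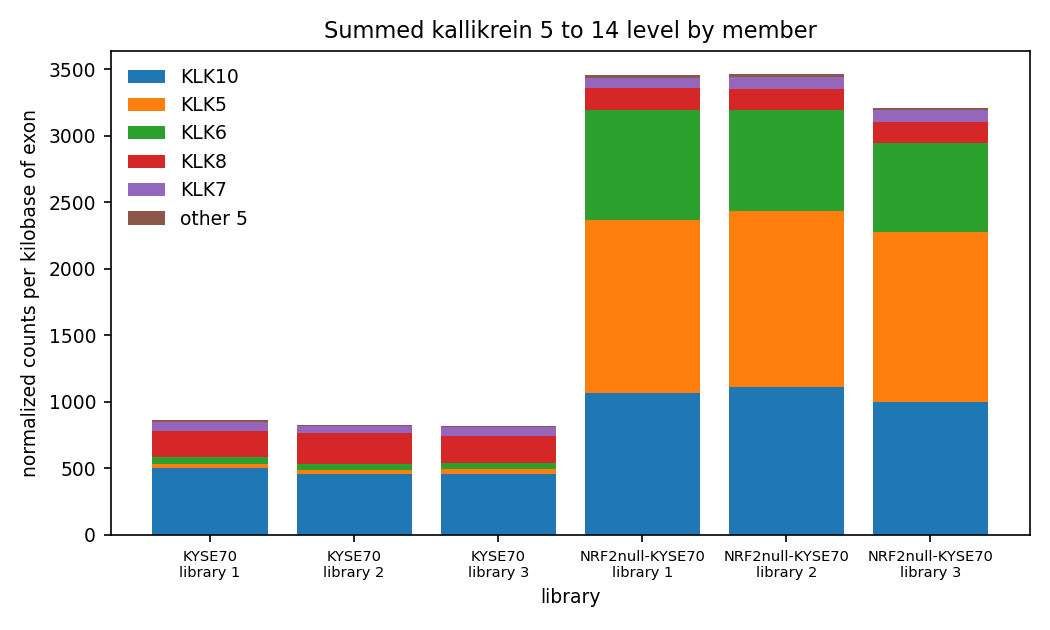
Stacked bars of normalized counts per kilobase of exon for each of the 6 libraries, coloured by member, with the other 5 being KLK9, KLK11, KLK12, KLK13 and KLK14. The KYSE70 bars are mostly KLK10 and KLK8 and average 836, and the NRF2null-KYSE70 bars average 3375 with KLK5, KLK10 and KLK6 as the broad bands.

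Ratios of reads within a library do not depend on its scaling. KLK5 reads stood at 0.466, 0.606 and 0.831 of KLK6 reads in KYSE70 and at 1.32, 1.46 and 1.58 in NRF2null-KYSE70. The ratio was higher in each library of the clone than in each parental one, so the pair did not differ between the lines by the same factor. The ratio of KLK5 to KLK8 went from 0.145 ± 0.0271 to 7.25 ± 0.189 (SD, 3 libraries per line). For KLK7 to KLK8 the ratio was 0.395 ± 0.0890 and 0.693 ± 0.0768 (SD, 3 libraries per line), also without overlap. These ratios are descriptions, and no test was made of them.

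Some exons of the family are shared with other annotated genes. In KLK9 96.3% and in KLK8 40.1% of exon bases overlap each other or a read-through gene on the same strand (ENSG00000269741), for which 0 reads were counted in all 6 libraries. Divided only by the 1118 exon bases of KLK8 that no other gene shares, the whole count of KLK8 came to 352 ± 31.2 per kilobase in KYSE70 and 265 ± 9.43 in NRF2null-KYSE70 (SD, 3 libraries per line). This length was chosen after the overlap was seen, and where on the gene its reads lay is not known. On the opposite strand, long non-coding RNA genes cover 12.2% of the exon bases of KLK5, 20.5% of KLK6, 9.04% of KLK12 and 6.32% of KLK10. The 2 genes opposite KLK5 and KLK6, ENSG00000269495 and ENSG00000267879, had 0, 0 and 0 and 0, 0 and 1 reads in KYSE70. They had 6, 3 and 1 and 6, 10 and 2 reads in NRF2null-KYSE70. Whether counting used strand is not stated, so reads of KLK5 and KLK6 cannot be told apart from those of the genes opposite them there.

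The other 5 kallikreins of the locus had too few reads to be tested. KLK4, directly next to KLK5, averaged 7.34 and 11.9 normalized counts in KYSE70 and NRF2null-KYSE70, with overlap. KLK1 averaged 7.08 and 2.06, and KLK2 and KLK3 had 3 reads or fewer in every library. KLK15 had 0, 4.54 and 0 normalized counts in KYSE70 and 5.07, 4.90 and 10.3 in NRF2null-KYSE70, without overlap. In reads these were 0, 5 and 0 against 5, 5 and 9, so the lines tied at 5 reads and only the scaling parted them.

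The genes around the cluster were compared to show how far the difference extended along the chromosome. Within 500 kb on either side lie 38 other protein-coding genes, of which 13 were tested, with 0 higher and 4 lower past both thresholds, against 7.23% and 7.43% of all tested genes. Their log2 fold changes ran from -2.83 to 0.32 with a median of -0.22. CTU1, a tRNA-modifying enzyme and the next gene after KLK14, had 273 ± 19.4 and 278 ± 30.6 normalized counts (SD, 3 libraries per line), less apart than the spread between libraries (log2 fold change 0.02, limma adjusted p = 0.89). The scaffold gene SHANK1, named after its value was seen, lies before KLK5 and had the largest fall of the 13, from 60.6 ± 9.42 to 9.42 ± 6.30 (SD, 3 libraries per line; log2 fold change -2.83 ± 0.542 SE, adjusted p = 6.34e-04 by limma). The other lower neighbours, also named for their values, lie close together after the cluster, within chr19:51331536-51369003. They were VSIG10L (log2 fold change -1.52), ETFB (-1.55, adjusted p = 1.75e-09 by limma) and CLDND2 (-1.21). Over 482 tested protein-coding genes of the long arm of chromosome 19, the median log2 fold change was 0.014, with 38 higher and 22 lower past both thresholds.

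**Figure D3:**
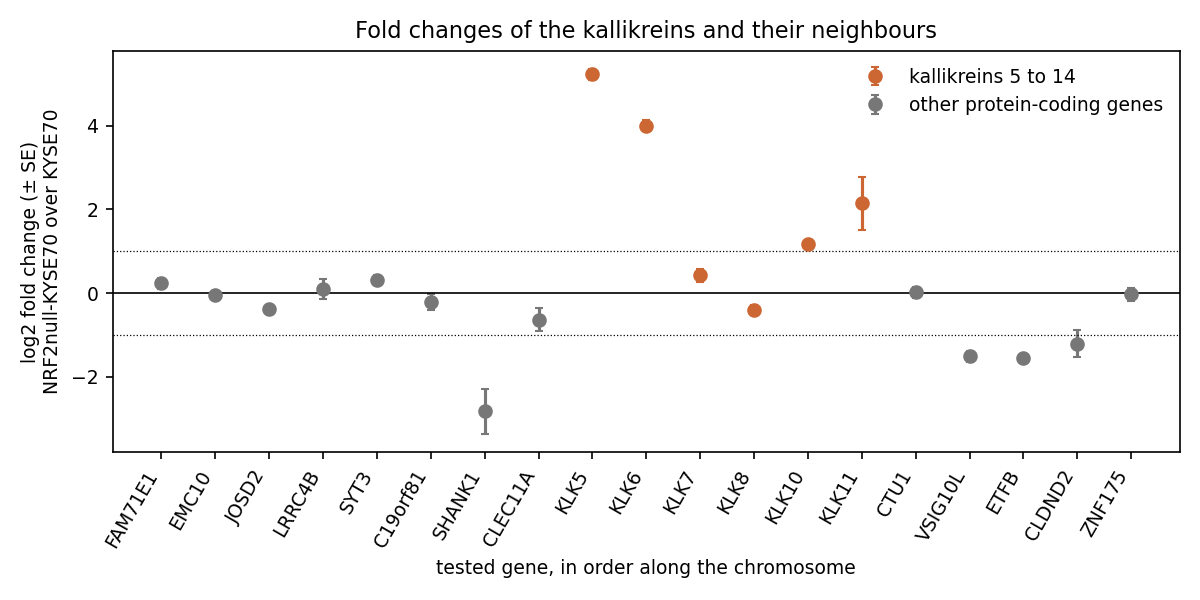
Log2 fold changes with their SE (NRF2null-KYSE70 over KYSE70) for the 6 tested kallikreins in orange and the 13 tested protein-coding neighbours in grey, in order along the chromosome, with dotted lines at the fold threshold. KLK5, KLK6, KLK10 and KLK11 lie above the upper line, and the neighbours range from -2.83 to 0.32.

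Proteases that can activate kallikreins or other precursors were compared next. Of 11 on the list, 5 were tested and 2 were higher past both thresholds, TMPRSS11E and PLAU, against 7.23% of all tested genes. Both passed the filter on low values only through NRF2null-KYSE70, where they averaged 23.3 and 17.5 normalized counts against 2.46 and 3.34 in the parental line. The filter was applied again when a library was left out. Without NRF2null-KYSE70 library 2 both genes fell under it and were not tested. By adjusted p alone 4 were higher, against 29.3% of all, and the median log2 fold change of the 5 was 0.70. ST14, or matriptase, a membrane protease of epithelial cells, took the most reads of the 5. It rose from 3311 ± 114 to 4488 ± 175 normalized counts (SD, 3 libraries per line), at a log2 fold change of 0.44 ± 0.0531 (SE, adjusted p = 1.43e-05 by limma) that is under the fold threshold.

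Of 12 inhibitors, 4 were tested, and 1 was higher and 0 lower past both thresholds, against 7.23% and 7.43% of all tested genes. By adjusted p alone 2 were higher, against 29.3% of all. The median log2 fold change was 0.69. SPINT1, an inhibitor of matriptase, rose from 5541 ± 183 to 11797 ± 959 normalized counts (SD, 3 libraries per line), at a log2 fold change of 1.09 ± 0.0589 (SE, adjusted p = 8.91e-09 by limma), which was 0.98 and under the fold threshold with quantile normalization. SPINK5, the inhibitor of KLK5 and KLK7, had 702, 597 and 712 normalized counts in KYSE70 and 1264, 1185 and 1187 in NRF2null-KYSE70. The lines did not overlap, and the log2 fold change was 0.86 ± 0.0870 (SE, adjusted p = 2.9e-06 by limma). Reads of KLK5 stood at 0.0852 ± 0.0136 of those of SPINK5 in KYSE70 and at 1.78 ± 0.0715 in NRF2null-KYSE70 (SD, 3 libraries per line).

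Among 16 receptors and substrates, 12 were tested, with 5 higher past both thresholds and 0 lower, against 7.23% and 7.43% of all tested genes. By adjusted p alone, 9 were higher and 1 was lower, against 29.3% and 28.3% of all, and the median log2 fold change was 0.60. IL1B, a cytokine made as a precursor, rose most, from 17.8, 27.2 and 38.0 normalized counts in KYSE70 to 731, 783 and 630.2 in NRF2null-KYSE70 (log2 fold change 4.70 ± 0.241 SE, adjusted p = 5.53e-09 by limma). FLG, which encodes the skin barrier protein filaggrin, rose 5.17-fold (limma adjusted p = 3.62e-08), although an antisense gene overlaps it. F2R, the thrombin receptor, rose 2.75-fold, IGFBP3, which binds insulin-like growth factors, 2.72-fold and PLAUR, the urokinase receptor, 2.16-fold. F2RL1, the protease-activated receptor that KLK5 and KLK14 can cleave, had 976, 987 and 985 normalized counts in KYSE70 and 1418, 1634 and 1405 in NRF2null-KYSE70. Its log2 fold change was 0.59 ± 0.0759 (SE, adjusted p = 2.31e-05 by limma). Of the desmosomal substrates of the outer skin, CDSN had 0 reads in all 6 libraries and DSG1 averaged 0.605 normalized counts in KYSE70 and 4.91 in the clone. DSC1 averaged 40.8 and 30.6, with overlap (adjusted p = 0.285 by limma).

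**Figure D4:**
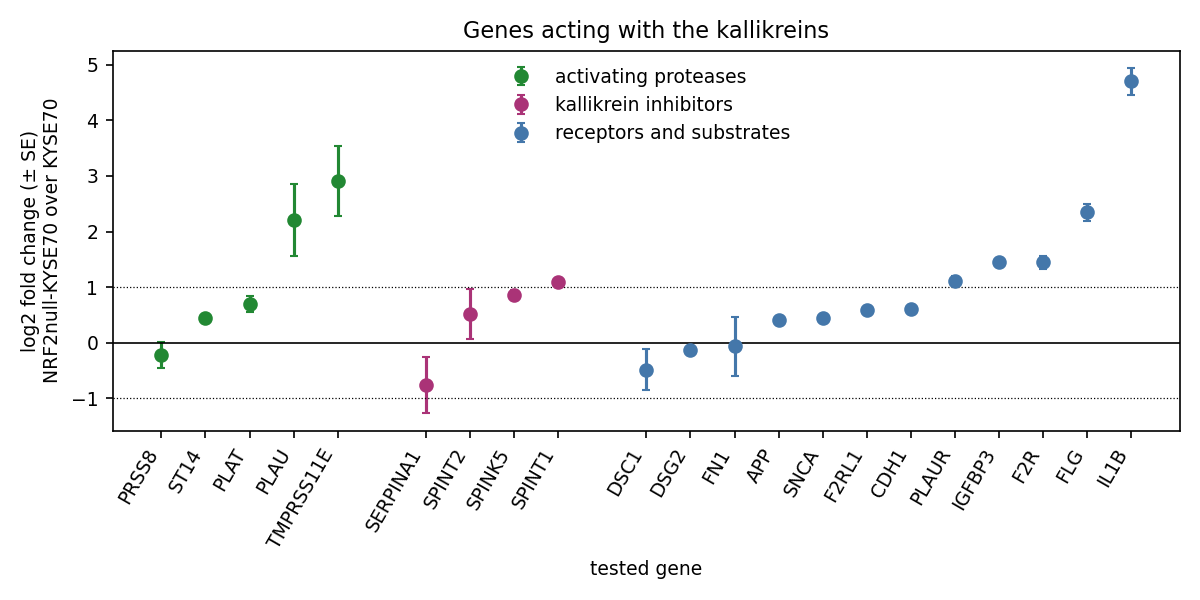
Log2 fold changes with their SE (NRF2null-KYSE70 over KYSE70) of the tested activating proteases in green, inhibitors in purple and receptors and substrates in blue, each sorted by value, with dotted lines at the fold threshold. IL1B lies highest at 4.70, and ST14, SPINK5 and F2RL1 lie between 0 and the upper line at 0.44, 0.86 and 0.59.

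Genes of terminal squamous differentiation, the program with which kallikreins appear in epidermis, were compared as well. Of 22 on the list 21 were in the table, and 15 of these, among them IVL, KRT1 and the SPRR genes, had too few reads to be tested. Of the 6 tested, 2 were higher and 1 was lower past both thresholds, against 7.23% and 7.43% of all tested genes, and the median log2 fold change was -0.15. In a fit without the filter on low values, over 28451 genes, 3 genes of the list were higher and 3 were lower. That fit also takes in the list's genes of few reads, all but the 3 with 0 reads in every library. The share of all genes called in it is not given. KRT4, a keratin of the upper esophageal epithelium, rose from 29.8 ± 14.3 to 174 ± 18.8 normalized counts (SD, 3 libraries per line; limma adjusted p = 3.3e-05). The protease inhibitor CSTA rose from 754 ± 53.9 to 2997 ± 288 (SD, 3 libraries per line; limma adjusted p = 8.22e-10). KRT13, the partner keratin of KRT4, fell from 12489.9 ± 325 to 4142 ± 346 (SD, 3 libraries per line; limma adjusted p = 3.08e-10).

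The genes closest to KLK5 and KLK6 in pattern were sought among 11075 protein-coding genes that averaged at least 100 normalized counts, by the Euclidean distance between centred log2 values of the 6 libraries. For KLK5 they were CPA4, PSG5 and SDR16C5, at distances of 0.405, 0.544 and 0.647 log2 units. CPA4, a carboxypeptidase, went from 294 ± 43.4 to 13624 ± 1036 normalized counts (SD, 3 libraries per line). For KLK6 they were UPK3B, GLIS3 and ZBED2, at 0.251, 0.286 and 0.293. GLIS3, a zinc finger transcription factor, went from 165 ± 24.9 to 2624 ± 85.8 (SD, 3 libraries per line). PSG5 and UPK3B have near-identical copies in the genome, so their reads may have been divided among these.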

How the data were processed

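RNA of 2 cell lines, with 3 libraries each, was compared. The authors trimmed reads with cutadapt (1.12), aligned them to hg38 with STAR (2.6.90c), counted reads per gene with featureCounts (1.5.1) and normalized with DESeq2, per the labels and methods. The deposited signal is normalized counts per gene. Strand and treatment of reads with several alignments are not given in the sources used here. Whole reads were recovered, as 100% of values were whole within 0.1 of a read.

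Values were tested with limma (3.58.1) in R (4.3.3), with a trend, on log2(normalized count + 1) for 15994 genes with a mean of at least 10, and two-sided p-values were Benjamini-Hochberg adjusted over all of them. The pseudocount of 1 understates changes of low genes. A line with 3 reads or fewer in each library was at the floor, which covers counting error only. Columns carry no replicate numbers, so libraries are numbered in table order. Positions and exons came from GENCODE v44, which held 58472 of 58884 identifiers. The fit was tested on simulated data.

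Members and lists were chosen with earlier results of these data known. Named were all kallikreins, the direct neighbours of the cluster, 4 genes regardless of value (SPINK5, ST14, F2RL1 and CDSN), and at most 5 genes per list that passed the threshold and averaged 50 or more. Nearest genes in pattern were limited to 3. Others were named for their values. Alternatives were other pseudocounts (0.1 and 5), filters, scalings, limma settings, edgeR (4.0.16), DESeq2 (1.42.0), transcript lengths and each library left out. Protein sequences were not analysed here.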

Additional observations from a re-analysis of the deposited data

How the results depend on the processing

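The log2 fold changes of KLK5 (5.13 to 5.35), KLK6 (3.92 to 4.10) and KLK10 (1.09 to 1.21) kept their direction and call under all 17 alternatives, and so did KLK8 (-0.48 to -0.33) by adjusted p. KLK7 (0.30 to 0.51) lost its adjusted p without the filter (0.0696), under total scaling (0.0876), without KYSE70 library 2 (0.153) or 3 (0.0619) and without NRF2null-KYSE70 library 2 (0.102) or 3 (0.111). Under the 16 alternatives in which KLK11 was tested it ran from 1.53 to 2.602 and lost its call without NRF2null-KYSE70 library 2 (0.0557). The count of lower members was 1 without the fold cut-off, where KLK8 enters. Higher activating proteases numbered 0 with a filter at a mean of 50, which removes both genes, and 0 to 2 when each library was left out (0 without NRF2null-KYSE70 library 2, and 1 without library 1 or 3). These losses came from the filter, applied again in each such fit. Both genes fell under it without library 2, and PLAU did so without library 1 or 3. Higher inhibitors numbered 2 without the filter, which adds genes of few reads, and 0 under quantile normalization, where SPINT1 fell just under the fold threshold at 0.98. Without the filter, which again adds genes of few reads, 3 genes of terminal differentiation were higher and 3 were lower. CTU1, which was not called, changed sign to -0.051 under total scaling and ranged from -0.060 to 0.094 when libraries were left out. Total scaling moved the median of all tested genes to -0.082. With the longest coding transcript as length, KLK13 and KLK14 exchanged places in NRF2null-KYSE70. No paired analysis was possible because columns name only the cell line, without a replicate number. KLK11, KLK12, KLK13 and KLK14 had 32 reads or fewer in every library, which limits the precision of their values.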
